A study of Mus musculus with 24 samples.

Results

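Open chromatin in the liver of C57BL/6J mice, an inbred strain that gains weight and stores fat in the liver on high fat feeding, was compared between mice returned to control diet and mice kept on high fat diet. In the Reversal group, 8 weeks of high fat feeding were followed by 8 weeks on control diet, and in the HF group high fat feeding lasted 16 weeks. Each group held 2 FAIRE-seq libraries, so that 4 of the 24 libraries of the series enter this comparison. The C57BL/6J Control group (16 weeks of control diet) and the A/J groups on the same 3 diets, 2 libraries each, are used for reference, A/J being an inbred strain that resists obesity from such feeding. Whether both libraries of a diet stem from different mice is not said in the labels. The lists analysed are 1 per strain and diet, and peaks per library were not analysed here. A difference between lists therefore has no replicate check, no test was run on it, and the intervals below cover counting error over regions only. Peaks of both lists on chromosomes 1 to 19 that shared at least 1 bp were merged into 34984 regions: 28093 regions with a peak in both lists (shared), 3325 with a peak in the Reversal list alone (Reversal-only) and 3566 with a peak in the HF list alone (HF-only). Beyond the submitters' own list threshold, no region entered a class by its signal.

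FAIRE recovers the DNA that is least crosslinked to protein, which is mostly DNA free of nucleosomes. In liver such sites are largely promoters and enhancers, where transcription factors keep the DNA accessible, and several factors that act there, such as PPAR alpha and SREBP, respond to dietary fat or sterols. Setting the Reversal list beside the HF list shows which sites are listed after 8 weeks back on control diet, on continued high fat diet or on both. The Reversal group also had a shorter high fat diet, and no group was taken at the end of the first 8 weeks, so that the return to control diet and the shorter exposure cannot be told apart. FAIRE on whole liver also cannot tell fewer cells with an open site from less open sites in the same cells. Genes at the regions are not named and no sequence is printed, because no mm9 annotation or genome was used here. For the same reason the tissue label was not checked at marker genes.

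The Reversal list held 31669 peaks on these chromosomes and covered 19.1 Mb, and the HF list held 32116 peaks and covered 18.5 Mb. The median peak was 453 bp wide on Reversal and 425 bp wide on HF. The lowest signal in a list was 0.0965 on Reversal and 0.0850 on HF. Signal is the authors' own value per peak on a scale that is not given, so it serves here only to rank peaks within a list, with 0% the strongest and 100% the weakest. Total read counts per library are not given in the sources used here, and the depth behind a signal is unknown.

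Most accessible sites were common to both diets. Shared regions made up 80.3% of all regions (95% Wilson interval 79.9 to 80.7), 89.4% of those in the Reversal list and 88.7% of those in the HF list. Reversal-only regions were 9.50% of all regions and 10.6% of Reversal regions (10.2 to 10.9). HF-only regions were 10.2% of all regions and 11.3% of HF regions (10.9 to 11.6). The slight excess of HF-only regions went with the longer HF list: with both lists cut to the same number of peaks, the shares turned to 11.1% Reversal-only and 10.6% HF-only. In A/J the same comparison gave 13.5% Reversal-only (13.1 to 13.8) and 9.76% HF-only (9.45 to 10.1). These A/J shares are from uncut lists, of which the Reversal list was the longer, with 34741 peaks against 33216 on HF.

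Regions in 1 list only were narrow and weak. The median width was 291 bp for Reversal-only and 280 bp for HF-only regions, against 523 bp for shared regions, and 12.2%, 7.91% and 52.1% of these classes were wider than 500 bp. In the Reversal list the median rank of a Reversal-only region was 89.7%, and in the HF list that of an HF-only region was 88.9%. None of the 6325 regions in the strongest 20% of the Reversal list lacked an HF peak. This allows a share of up to 0.0474%, taken as 3 regions of the total. None of the 6406 in the strongest 20% of the HF list lacked a Reversal peak, which allows up to 0.0468% by the same rule. To lack a peak there, a strong region would have to fall below the threshold of the other list. These counts thus do not show how much strong regions changed. Between ranks of 60 and 80% the share without a partner was 10.2% on Reversal and 12.2% on HF, and in the weakest 20% it was 42.5% (41.3 to 43.7) and 43.3% (42.1 to 44.6). In the stronger 50% of its list stood 2 Reversal-only regions and 32 HF-only regions.

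**Figure D1:**
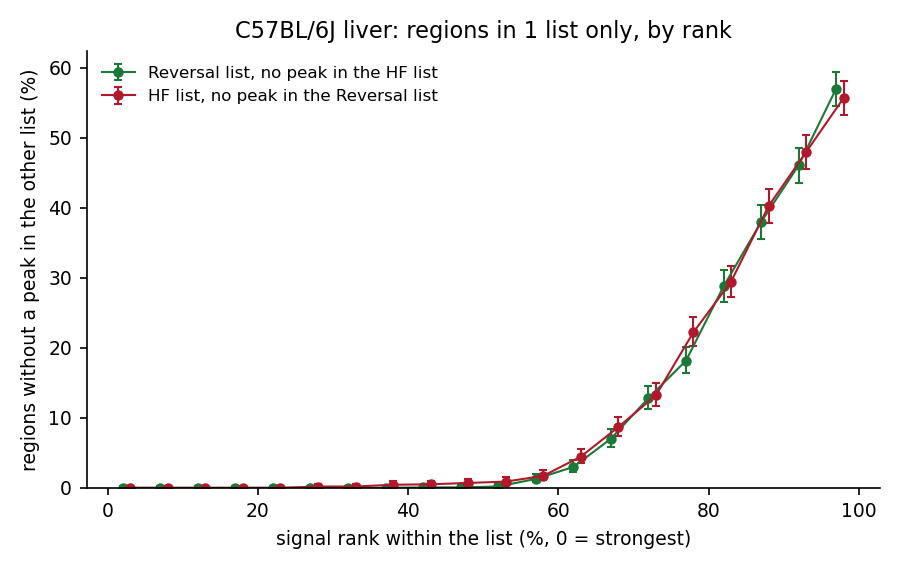
Share of regions without a peak in the other list (y axis, percent) against the signal rank in their own list (x axis, percent, 0 the strongest, bins of 5%), for the Reversal list (green) and the HF list (red), C57BL/6J liver; bars are 95% Wilson intervals and points are shifted slightly sideways. Both curves stay near 0 down to the middle of the list and reach 57.1% for Reversal and 55.7% for HF in the weakest bin.

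The peak names carry serial numbers that increase along every chromosome in both lists, and the listed peaks use 18.4% of these numbers on Reversal and 20.1% on HF. What the numbers count is not documented, and numbers skipped between neighbouring listed peaks are given here as they stand. Around Reversal-only regions the HF list skipped at least 1 number in 3325 of 3325 cases, so that cases without a skipped number are limited to a share of 0.0902%. Around the 3532 HF-only regions with a Reversal peak on either side, the Reversal list skipped at least 1 number in 3530. A skipped number was also common elsewhere, in 73.6% of the other intervals of the HF list and 74.5% of those of the Reversal list. Those other intervals were shorter, with medians of 17285.5 bp against 50379 bp in the HF list and 16478 bp against 71796 bp in the Reversal list. Long intervals hold more numbers, so the short ones tell more. In intervals of up to 5 kb between listed peaks, the HF list skipped a number in 243 of 243 cases around a Reversal-only region, against 42.7% of its other intervals of up to 5 kb. The Reversal list did so in 195 of 197 cases around an HF-only region, against 41.8% of its other intervals. The short intervals around these regions were also longer than the others, with medians of 2760 bp against 1186 bp in the HF list and 2752 bp against 1228 bp in the Reversal list. A region in 1 list only thus nearly always lay where the numbering of the other list had a gap, but such gaps were common throughout both lists. Whether a skipped number belonged to the region itself cannot be read from the lists.

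The Control list was not used to form the classes. A Control peak lay on 46.4% of Reversal-only regions (44.7 to 48.1) and 42.8% of HF-only regions (41.1 to 44.4), against 92.5% of shared regions. The difference between both list-only classes was 3.67 percentage points (Newcombe interval 1.32 to 6.01). With the sex chromosomes included the shares were 46.8% (45.2 to 48.5) and 45.3% (43.7 to 46.8), and their intervals overlap. Shared regions were stronger, so classes were also compared at like rank. At 80 to 100% the shares were 45.0% of Reversal-only and 41.5% of HF-only regions. Shared regions had 71.0% by Reversal rank and 70.8% by HF rank. At 60 to 80% the list-only shares were 52.6% and 46.3%, against 84.8% and 84.9% of shared regions. In counts, 1544 Reversal-only regions had a Control peak, while 1781 had a peak on neither other C57BL/6J diet. Of the HF-only regions 1525 had a Control peak as well, so that among C57BL/6J lists the Reversal list alone lacked them, and 2041 were listed on HF alone.

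The A/J lists held a larger share of Reversal-only than of HF-only regions. At least 1 of the 3 A/J lists held a peak on 62.6% of Reversal-only regions (60.9 to 64.2) and on 47.3% of HF-only regions (45.6 to 48.9), a difference of 15.3 percentage points (13.0 to 17.6). The direction was the same in each A/J list. On A/J Control the shares were 55.6% and 40.8%, on A/J HF 49.8% and 40.9%, and on A/J Reversal 49.2% and 40.2%. The matching diet in A/J did not stand out. The share of Reversal-only regions with an A/J Reversal peak was the lowest of the 3 A/J shares. Shared regions too had their lowest share on A/J Reversal, 81.7%, against 83.5% on A/J Control and 86.2% on A/J HF. The low place of A/J Reversal was thus not particular to Reversal-only regions. The 3 shares of HF-only regions lay within 1 percentage point. With classes compared at ranks of 60 to 80%, the difference for any A/J list was 21.7 percentage points (16.9 to 26.3). At 80 to 100% it was 13.7 (11.01 to 16.3), so that Reversal-only regions had the larger share at either level of signal. At 60 to 80% the shares were 79.9% of Reversal-only and 58.2% of HF-only regions. Shared regions had 77.6% by Reversal rank and 75.5% by HF rank. At 80 to 100% the list-only shares were 58.2% and 44.5%, against 58.4% and 66.8% of shared regions. Reversal-only regions thus lay near shared regions of like Reversal rank, and HF-only regions below shared regions of like HF rank. Whether A/J reads map to the reference like C57BL/6J reads was not tested.

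**Figure D2:**
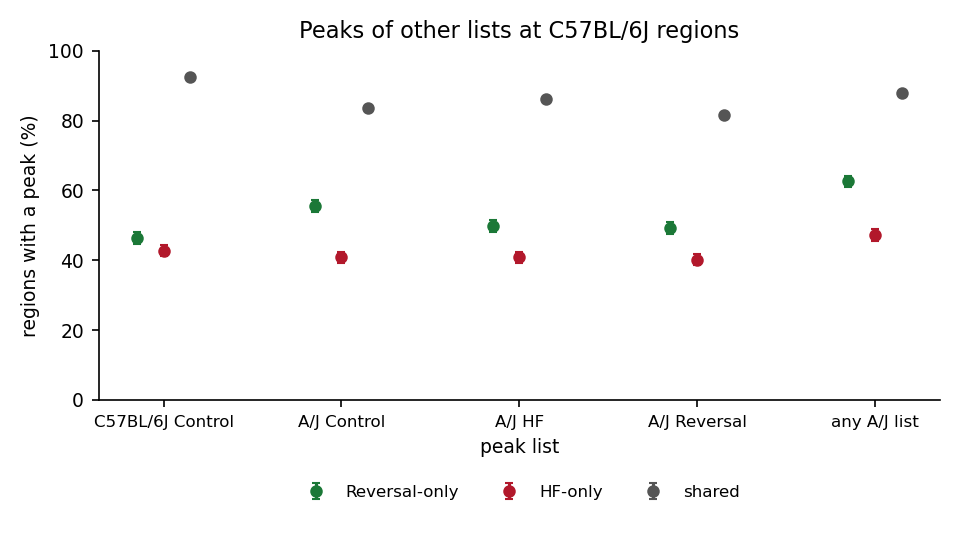
Share of regions with a peak (y axis, percent) in the C57BL/6J Control list, in each A/J list and in any A/J list (x axis), for Reversal-only (green), HF-only (red) and shared regions (grey); bars are 95% Wilson intervals, which are smaller than the point where they are not seen. Reversal-only regions lie above HF-only regions for each list, by 3.67 percentage points on Control and by 15.3 for any A/J list. Classes are not matched by signal rank here, and shared regions are the stronger.

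HF-only regions that also had a Control peak were seldom listed in A/J. Of these 1525 regions, 460 (30.2%) had a peak in any A/J list, against 1226 (60.1%) of the 2041 HF-only regions without a Control peak. Among Reversal-only regions the corresponding shares were 55.2% with and 69.0% without a Control peak. The other 1065 HF-only regions, with a Control peak and none in A/J, often lay in sparse surroundings: 43.7% of them had no shared region within 50 kb. The share was 19.1% for HF-only regions with both a Control and an A/J peak, 10.7% for those with an A/J peak alone and 19.1% for those with neither. The same combination stood highest in the other classes. With a Control peak and none in A/J, the share was 34.3% of 691 Reversal-only and 40.9% of 3024 shared regions, while with neither peak it was 17.9% and 15.2%. Sparse surroundings thus went with a Control peak and no A/J peak together, in each of the 3 classes.

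Several of the strongest HF-only regions lay at the very start of the assembled chromosomes, where the first megabases up to the centromere are not assembled in the mouse. The HF-only region with the highest signal covered positions 3007136 to 3012902 of chromosome 4, in mm9 and counted from 1 as all positions here. It was 5767 bp wide, the widest HF-only region, and its HF signal of 0.410 ranked at 25.4% while its Control signal of 0.102 ranked at 80.9%. In A/J it ranked at 93.9% on Control, 76.3% on HF and 97.7% on Reversal. It was thus well up the HF list and low in every other list that held it. The second covered 3026874 to 3027461 of chromosome 17, with a rank of 25.7% on HF (0.406) and 66.2% on Control (0.125). The third covered 3029615 to 3031212 of chromosome 17, with a rank of 26.7% on HF (0.388) and 74.4% on Control (0.111). Both also had peaks on A/J HF, at 66.5% and 85.6%, and lower still on A/J Reversal. The fifth covered 3011953 to 3013890 of chromosome 17, with a rank of 33.4% on HF (0.293) and 80.9% on Control. Only the fourth of these 5 lay elsewhere, within chromosome 6 from 49186386 to 49186680, with a peak of rank 32.9% on HF and none in the other 5 lists.

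The 3 regions on chromosome 17 belonged to a cluster. Along chromosome 17, 18 HF-only regions followed each other without a shared region between them, from 3006673 to 3038890, a span of 32.2 kb. Of these, 3 had a Control peak and 3 a peak in any A/J list. Within the first 0.5 Mb above position 3 Mb, a zone set after the values were seen, all 19 chromosomes together held 49 HF-only, 9 Reversal-only and 120 shared regions. HF-only regions were 29.0% of HF regions there, against 11.2% on the rest of these chromosomes. Without chromosome 17 the zone held 28 HF-only and 9 Reversal-only regions, and HF-only regions were 20.1% of HF regions, so that chromosome 17 accounts for 21 of the 49. The HF-only region on chromosome 16 from 3235824 to 3237677 (1854 bp), narrower only than those on chromosome 4 from 3007136 and on chromosome 17 from 3011953, also lay in this zone, with a rank of 41.6% on HF and no peak in the other 5 lists.

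Other HF-only regions were clustered inside chromosomes. The 1 Mb window with the most of them lay on chromosome 8 from 19000001 to 20000000, with 23 HF-only, 3 Reversal-only and 51 shared regions. Of the 23, 12 had a Control peak and 15 a peak in any A/J list. The window on chromosome 17 from 3000001 to 4000000 held 21 HF-only and no Reversal-only region. The window on chromosome 7 from 67000001 to 68000000 held 18 HF-only, no Reversal-only and 6 shared regions, among them a run of 9 HF-only regions from 67008127 to 67025299 (17.2 kb). Of those 18 regions, 12 had a Control peak and 4 a peak in any A/J list.

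Reversal-only regions had a longest run of 6, and the strongest of them stood lower in their list. The strongest covered 99109798 to 99110147 of chromosome 7, at a rank of 40.5% on Reversal (signal 0.290), with no peak on HF or Control. In A/J it had a peak on all diets, at ranks of 82.7% on Control, 41.9% on HF and 38.4% on Reversal. The second, on chromosome 14 from 50552212 to 50552595, had 0.228 on Reversal (48.4%), no peak on HF or Control, and A/J peaks on HF (74.3%) and Reversal (72.1%) but none on A/J Control. The fourth, on chromosome 15 from 15385185 to 15385523, had the same pattern: 0.203 on Reversal (52.7%), and A/J peaks on HF (86.5%) and Reversal (79.0%) alone. These 3 sites were thus listed in A/J on HF as well as on Reversal. The third and the fifth also had a Control peak. Chromosome 2 from 163729250 to 163729557 had 0.205 on Reversal (52.3%) and 0.128 on Control (64.4%), and chromosome 17 from 43407157 to 43407495 had 0.194 on Reversal (54.7%) and 0.116 on Control (71.0%). In A/J the region on chromosome 2 again had peaks on Control and Reversal and none on HF, the same as in C57BL/6J. The region on chromosome 17 had a peak on all 3 A/J diets.

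The 3 widest Reversal-only regions ranked between 77.6% and 96.3% on Reversal. The widest lay on chromosome 8 from 126086248 to 126088192 (1945 bp), with ranks of 96.3% on Reversal and 85.5% on Control and no A/J peak. Close by, 6 Reversal-only regions in a row lay between 126104783 and 126115265, all 6 with a Control peak, and the 1 Mb window around them held 14 Reversal-only regions, all 14 with a Control peak and 5 with a peak in any A/J list. At these 14 regions HF was thus the C57BL/6J diet without a listed peak. On chromosome 10 lay the next in width, from 80128264 to 80130126 (1863 bp, rank 81.9%) and from 79327672 to 79329299 (1628 bp, 77.6%). The former overlapped strong A/J peaks, at ranks of 10.98% on Control and 10.7% on HF, and a weak one on A/J Reversal at 92.3%. The richest 1 Mb windows were those on chromosome 8 from 73000001 (19 Reversal-only, 3 HF-only and 91 shared regions) and on chromosome 2 from 167000001 (17, 6 and 92). These windows are dense in shared regions, and the window on chromosome 10 from 79000001 held 14 Reversal-only beside 12 HF-only and 123 shared regions.

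By chromosome, HF-only regions outnumbered Reversal-only regions on 13 of 19 chromosomes and the reverse held on 6. These counts are from the uncut lists, of which the HF list was the longer. Chromosome 7 had the lowest number of Reversal-only per HF-only region, 0.693, with 9.20% Reversal-only (8.06 to 10.5) and 12.8% HF-only (11.4 to 14.2). Chromosome 2 had the highest, 1.24, with 11.5% Reversal-only (10.3 to 12.8) and 9.47% HF-only (8.37 to 10.7). The shares are of the regions of the respective list on that chromosome. These 2 chromosomes were picked as the extremes of 19, and no chromosome was tested.

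Shared regions kept their order. Ranked among the shared regions alone, so that both ranks run over the same 28093 regions, ranks on HF and Reversal had a Spearman correlation of 0.95 across regions, which are not replicates. The rank differed by less than 5 percentage points in 58.7% of regions, and the middle 90% of changes lay between -14.5 and 14.7 points, where a positive value means nearer to the top on Reversal. A rank at least 20 points higher on Reversal was found in 618 regions (2.20% of shared regions) and one at least 20 points lower in 613 (2.18%). Of these, 155 of the 618 and 161 of the 613 stood in the stronger 50% of at least 1 list. Of the 5618 shared regions in the strongest 20% on HF, 5245 (93.4%) were also in the strongest 20% on Reversal, and 14 stood at least 20 points lower there. Conversely, 3 regions of the strongest 20% on Reversal had stood at least 20 points lower on HF.

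**Figure D3:**
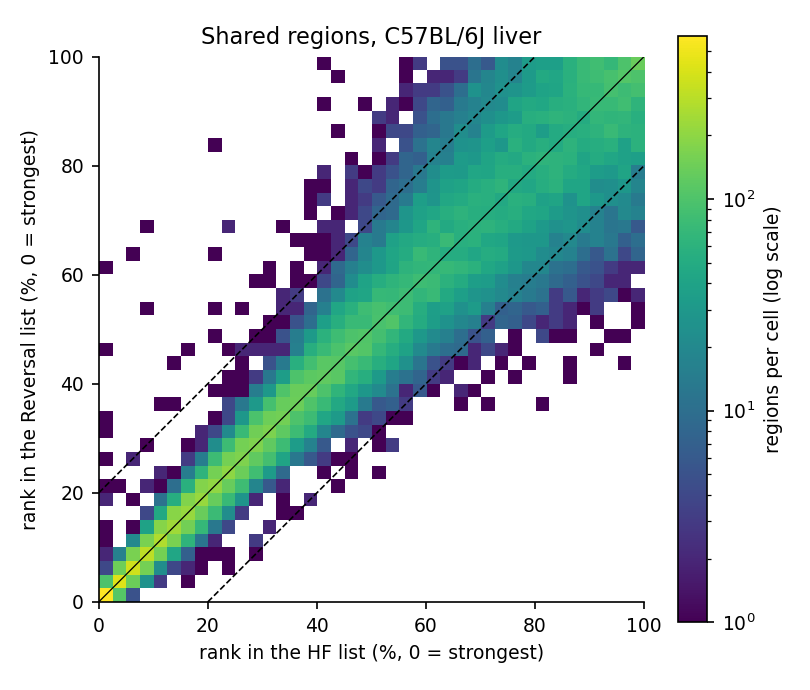
Rank of the 28093 shared regions in the HF list (x axis) and in the Reversal list (y axis), in percent with 0 the strongest; colour gives the number of regions per cell of 2.5 by 2.5 percentage points on a log scale. The solid line marks equal rank and the dashed lines a difference of 20 points, beyond which lie 618 regions (below the line pair, higher on Reversal) and 613 regions (above it, lower on Reversal).

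The first 5 regions of both lists were the same. At the strongest shared region, positions 98506213 to 98507705 of chromosome 2, the signal was 203.7 on Reversal and 190.6 on HF, and the 4 that followed, on chromosome 4 from 79648077 to 79651287, chromosome 13 from 85265970 to 85267359, chromosome 1 from 24618113 to 24623210 and chromosome 2 from 22442662 to 22446357, stood in the same order in both. Reversal signals of these 4 ran from 158.6 to 173.6 and HF signals from 104.5 to 114.3. All 5 had peaks in every Control and A/J list, and their widths on Reversal and HF differed by at most 1.03-fold. The median signal of a listed peak was far lower, 0.218 on Reversal and 0.177 on HF. Whether reads map uniquely to these 5 regions was not tested.

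The named changes of rank are the largest among regions in the stronger 50% of at least 1 list. The 5 largest losses on Reversal ran from 56.0 to 63.6 points and the 5 largest gains from 45.2 to 51.1 points. The largest loss, at positions 20821441 to 20821856 of chromosome 2, took the rank among shared regions from 20.2% on HF (signal 0.572) to 83.9% on Reversal (0.129). On Control it had 0.218, a rank of 39.8% in that list. On chromosome 6 from 3150869 to 3151668, again near the start of the assembled chromosome, the rank among shared regions was 1.07% on HF (signal 1.44) and 62.0% on Reversal (0.191), and Control stood at 31.5% of its list. In both, A/J HF was the A/J list in which the region ranked best, at 50.8% and 28.5% of that list. The next were on chromosome 1 from 102076674 to 102077002 (8.56% on HF, 69.0% on Reversal, no A/J peak), chromosome 18 from 68851644 to 68852000 (5.83% and 64.0%) and chromosome 17 from 3080185 to 3080975 (42.0% and 97.9%, no A/J peak). On Control these 3 ranked at 55.5%, 38.0% and 52.0% of the list. The region on chromosome 18 also ranked best on A/J HF, at 54.7%, against 62.9% on A/J Control and 72.3% on A/J Reversal. These 5 losses were picked for the difference between HF and Reversal, so that a Control rank between them carries no weight. The 14 regions of the strongest 20% on HF that stood at least 20 points lower on Reversal all had a Control peak, at a median rank of 19.7% of the Control list, and 13 of them a peak in any A/J list.

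The largest gain, at positions 164681623 to 164682623 of chromosome 2, took the rank among shared regions from 95.9% on HF (signal 0.0917) to 44.8% on Reversal (0.295). At positions 31412282 to 31412741 of chromosome 16 the ranks were 95.4% on HF (0.0925) and 48.7% on Reversal (0.264). Chromosome 14 from 121246364 to 121246673 (98.6% on HF and 52.1% on Reversal), chromosome 10 from 52238006 to 52238434 (92.3% and 46.2%) and chromosome 5 from 111231200 to 111231547 (94.8% and 49.6%) followed. All 5 had a Control peak, at 50.2%, 70.3%, 68.7%, 91.9% and 78.6% of that list. The region on chromosome 2 had A/J peaks on Control and Reversal and none on HF. The other 4 had A/J peaks on all diets and ranked better on A/J Reversal than on A/J HF, for example at 65.5% and 94.7% for the region on chromosome 14.

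The A/J lists come from other libraries and were not used to find these regions. In regions with a peak in both A/J lists, ranked among the 22605 such regions, the rank on A/J Reversal was better than on A/J HF in 389 of 511 regions that stood higher on C57BL/6J Reversal (76.1%, 72.2 to 79.6), with a median difference of 7.84 points. Weak regions at large leaned the same way: shared C57BL/6J regions whose mean rank lay at 60 to 100% and whose rank changed by less than 20 points had a median of 2.65 points and a better A/J Reversal rank in 62.5% of 6042 regions (61.3 to 63.7). Regions that stood lower on C57BL/6J Reversal had a median close to these, 2.23 points, and a better A/J Reversal rank in 209 of 357 (58.5%, 53.4 to 63.5). Large changes in A/J were also counted. A gain of at least 20 points in A/J was found in 13.1% of the regions higher on C57BL/6J Reversal, against 5.66% of the weak regions, and a loss of that size in 2.15%, against 1.37%. Of the 357 regions lower on C57BL/6J Reversal, 20 (5.60%) had such a loss in A/J, against 1.37% of the weak regions. Such a gain was found in 18 (5.04%), against 5.66% of the weak regions. Gains and losses were thus about equally frequent among these lower regions, while losses were more frequent than among the weak regions. Neighbouring regions are not independent, and none of these differences was tested.

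**Figure D4:**
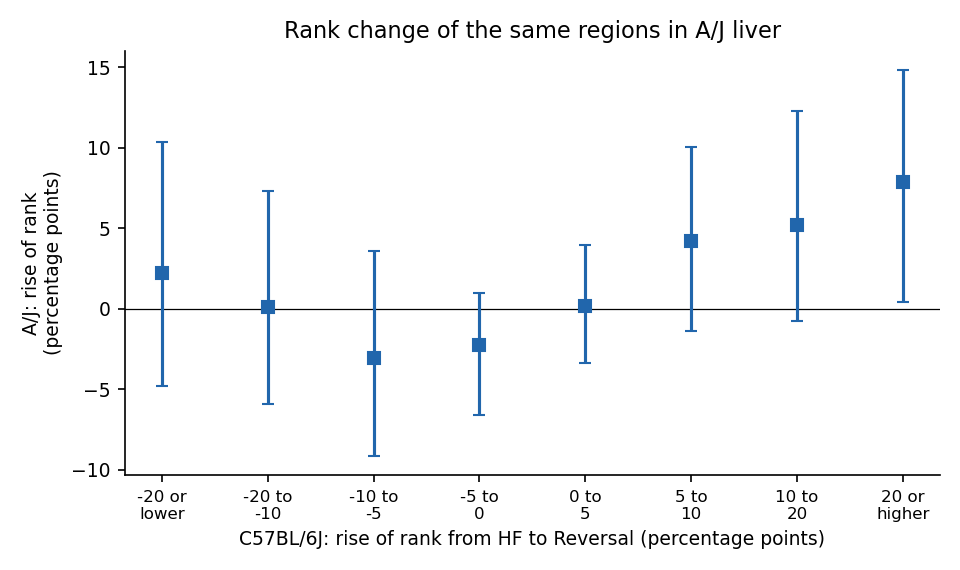
Rank change from HF to Reversal in A/J liver (y axis, percentage points, positive means nearer to the top on Reversal) for shared C57BL/6J regions grouped by their own rank change (x axis, percentage points); squares are medians and bars run from the lower to the upper quartile over regions. The A/J median is 7.84 points in the group 20 or higher and 2.23 points in the group -20 or lower. It is 0.104 points at -20 to -10, -3.02 at -10 to -5 and -2.26 at -5 to 0.

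Presence in A/J also differed. Any A/J list held a peak on 92.7% of the regions that stood higher on Reversal (90.4 to 94.5), on 72.3% of those that stood lower (68.6 to 75.7) and on 73.1% of the weak regions with a smaller change (72.2 to 73.9). A Control peak lay on 80.1%, 78.8% and 82.5% of these groups, a span of under 4 percentage points. Where there was one, its median rank in the Control list was 70.3% for the regions higher on Reversal and 58.3% for those lower.

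Peaks were slightly wider on Reversal. In shared regions the covered width had a median of 492 bp on Reversal and 465 bp on HF, and the median of the ratio per region was 1.02-fold, with quartiles of 0.967 and 1.09. Reversal was wider in 16737 regions (59.6%), HF in 11086, and 270 had equal widths. At least 1.5-fold wider on Reversal were 1073 regions (3.82% of shared regions) and at least 1.5-fold narrower 361 (1.29%). Wider calls outnumbered narrower ones at every level of signal, from 89 against 22 in the strongest 20% by mean rank to 285 against 104 in the weakest. The summits hardly moved, with a median distance of 6 bp between lists and 37 bp at the 95th percentile. Single peaks faced each other in 97.7% of shared regions. In 418 regions 1 Reversal peak covered several HF peaks, and in 206 it was the reverse. Over the whole A/J lists the median peak was narrower on Reversal, 470 bp against 481 bp on HF. In the whole C57BL/6J lists it was 453 bp on Reversal and 425 bp on HF. Peak width also moves with depth and with the peak caller, which are not known here, and their part was not tested.

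**Figure D5:**
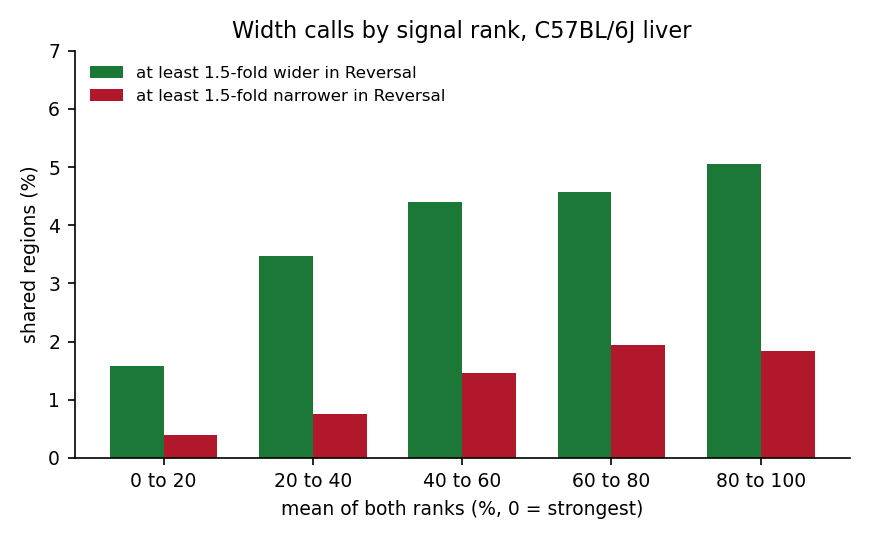
Share of shared regions (y axis, percent) that were at least 1.5-fold wider (green) or narrower (red) on Reversal than on HF, by the mean of both signal ranks (x axis, percent, 0 the strongest). Wider regions outnumber narrower ones in each bin, from 1.58% against 0.392% in the strongest to 5.05% against 1.84% in the weakest.

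Width and rank changed together. Regions that stood at least 20 points higher on Reversal were wider there in 542 of 618 cases (87.7%, median 1.16-fold), and those that stood lower were wider in 80 of 613 (13.1%, median 0.890-fold). Width and signal of a peak come from the same reads, so that width is no independent measurement of the change. Of the 6 named changes of width, 5 came with a change of rank under 20 points. On chromosome 6 from 24905268 to 24906568 Reversal covered 1301 bp and HF 302 bp (4.31-fold) at shared ranks of 59.7% and 69.2%. Chromosome 4 from 63155735 to 63157330 (1575 and 377 bp) and chromosome 3 from 89124477 to 89125985 (1509 and 363 bp) were near the bottom of both lists. Narrower on Reversal were chromosome 8 from 20023252 to 20024867 (304 and 1616 bp, 5.32-fold), chromosome 19 from 46718977 to 46720098 (280 and 1122 bp) and chromosome 8 from 19762156 to 19764909 (733 and 2754 bp). At the last the rank was also lower on Reversal, 99.3% against 78.5% on HF. It lies in the window of chromosome 8 with the most HF-only regions, and the region from 20023252 just beyond it.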

How the data were processed

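FAIRE-seq libraries of C57BL/6J and A/J liver were grouped by their titles. For Reversal, the labels name 16 weeks of control diet in one field and 8 in the treatment protocol, which was followed. Per the submitters' processing notes, mm9, Bowtie2, TopHat and DESeq2 were used, with no version or role. Neither a peak caller nor a pooling of libraries is named there. The authors' deposited lists, whose strain and diet come from their names, give position, summit and a signal per peak on a scale not given. The authors' deposited expression tables were not used. Peaks were merged with Python 3.11.15 (pandas 2.3.3, SciPy 1.17.1), and a region took its highest signal and the bases covered per list. Intervals are 95% Wilson or Newcombe intervals. The code was tested on simulated lists. Named regions were, per class, the 5 strongest and 3 widest, and among shared regions the 5 largest rank changes each way, the 3 largest width changes each way and the 5 strongest, with the 3 richest 1 Mb windows per class (4 for Reversal-only, for a tie). Runs and chromosome starts were chosen after the values were seen. The classes were chosen with earlier results of these data known. Alternatives varied the overlap, the threshold, list length, chromosomes and call limits.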

Additional observations from a re-analysis of the deposited data

How the results depend on the processing

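No paired analysis was possible because the lists hold 1 column of values per diet and none per library, and for the same reason no library could be left out. Of 54 values of the main results under alternatives, 28 stayed within the interval of the main value. With summits within 150 bp required, 13.0% of Reversal regions were Reversal-only, 14.2% of HF regions HF-only and 76.0% of all regions shared. In the strongest 75% of each list these shares were 8.23%, 9.01% and 84.1%, in the strongest 50% 5.53%, 6.55% and 88.6%. With lists cut to equal length, Reversal-only regions were 11.1% and HF-only regions 10.6%. With the sex chromosomes HF-only regions were 11.7%. Of the strongest 50% of a list against the whole other list, 0.0127% of Reversal and 0.201% of HF regions lacked a peak. The share of shared regions that changed by 20 points of rank, 4.38%, became 4.66% with 1 peak in each list, 2.01% in the strongest 50% of each list, 4.78% with the sex chromosomes, 5.39% with ranks over whole lists (726 higher and 787 lower on Reversal) and 19.7% at 10 points. Width calls, 5.10% at 1.5-fold, were 1.41% at 2-fold. Among list-only regions in the stronger 50% of their list, a Control peak lay on 0 of 2 Reversal-only and 53.1% of 32 HF-only regions, and any A/J peak on 100% of 2 and 31.2% of 32. With the sex chromosomes 45.3% of HF-only regions had a Control peak and 44.4% an A/J peak. The 10 named rank changes kept their direction and size class under the 3 alternatives run on them. Leaving out the richest windows and the chromosome starts, chosen after the data were seen, moved no value out of its interval. Region counts set these intervals, and the depth of the libraries is unknown.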

Other observations

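On the X chromosome, which lies outside the regions described above, the lists differed more than on chromosomes 1 to 19. Of 1181 regions there, 249 were HF-only and 64 Reversal-only, which is 22.3% of HF and 6.87% of Reversal regions. A Control peak lay on 189 of the 249 HF-only regions. The lists held 1365 peaks on the X chromosome on Control, 1135 on HF and 955 on Reversal. On the Y chromosome 34 of 123 regions were HF-only and 3 Reversal-only, and 28 of the 34 had a Control peak. With 1 list per diet these differences were not tested.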
